A study of Mus musculus with 40 samples.

Results

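The genes described here were 10 transcripts that mark perivascular and other tissue-resident macrophages, namely Mrc1, Cd163, Lyve1, F13a1, Pf4, Folr2, Cbr2, Stab1, Cd209f and Timd4. They were chosen by name, and each of the 10 matched 1 row by its Ensembl identifier among the 54307 rows of normalized counts. The data came from RNA sequencing of retina and choroid of 20 mice with laser-induced choroidal neovascularization, a model in which laser burns break the membrane under the retina and new choroidal vessels grow in. All mice were homozygous for a floxed Tgfbr2 allele (Tgfbr2 fl/fl) on a C57BL/6J background, and all received tamoxifen eye drops for 5 days at 6 to 7 weeks of age. Tgfbr2ΔEC mice (CrePos in the labels) also carried Cdh5-CreERT2, a tamoxifen-inducible Cre driven by an endothelial promoter, and their littermates without Cre (CreNeg) were the controls. PLX5622, an inhibitor of the receptor CSF1R on which many macrophages and microglia depend for survival, was given in the diet from the first tamoxifen dose to the end (+ PLX) or left out (– PLX). Each eye received 6 laser burns and RNA was taken on day 3, which gave 5 mice in each of 4 groups, 2 tissues per mouse and 40 libraries. Both sexes were used, and a Y-linked transcript was present in 3 of 5 control – PLX, 2 of 5 Tgfbr2ΔEC – PLX, 3 of 5 control + PLX and 1 of 5 Tgfbr2ΔEC + PLX mice.

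Perivascular macrophages lie along blood vessels, and with other resident macrophages they take up debris, hemoglobin and hyaluronan and sample the blood and tissue fluid. In the eye, the choroid is rich in such cells, whereas microglia are the main macrophages of the retina. The members belong to different functional groups. Mrc1 (the mannose receptor CD206), Cd163 (the receptor for hemoglobin bound to haptoglobin), Stab1 (the scavenger receptor stabilin-1), Lyve1 (a hyaluronan receptor), Folr2 (folate receptor beta), Cd209f (a C-type lectin) and Timd4 (a receptor for phosphatidylserine on dying cells) encode surface receptors. F13a1 (the A subunit of coagulation factor XIII) and Pf4 (the chemokine CXCL4) encode secreted proteins, and Cbr2 encodes a carbonyl reductase. Several are also made elsewhere, with Pf4 abundant in platelets, and Lyve1 and Stab1 found in lymphatic or sinusoidal endothelium.

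The values were normalized counts, that is, transcript counts summed per gene and divided by a factor for each library, and they were not whole numbers. Summed over genes they amounted to 24718469 to 25956180 per choroid library and 22256892 to 24507335 per retina library, and 1 read was worth about 0.895 to 1.195 and 0.745 to 1.125, so that values of a few units rested on a few reads. No difference in Tgfbr2 itself between genotypes was detected in whole choroid without PLX (adjusted p = 0.925 by limma). Tgfbr2 was at 10500 ± 424.7 in control – PLX and 10180 ± 1077 in Tgfbr2ΔEC – PLX (SD, n = 5). The log2 difference, Tgfbr2ΔEC minus control, was -0.05 (95% interval -0.24 to 0.13). Endothelial cells are only a part of this tissue, and their part in the Tgfbr2 values was not tested. The paper reports successful deletion by PCR and qPCR of choroidal tissue. Choroid libraries held retinal pigment epithelium (Rpe65 14930 to 43890) and some neural retina. The summed level of 9 photoreceptor genes (among them Gnat1, Sag and Crx) in a choroid was 0.413% to 2.56% of that in the retina of the same mouse in control – PLX, 3.03% to 10.5% in Tgfbr2ΔEC – PLX, 0.416% to 9.93% in control + PLX (9.93% in mouse 15) and 0.889% to 2% in Tgfbr2ΔEC + PLX. The retina of mouse 1 (control – PLX) stood apart: 93 genes reached at least 100 there and at least 10 times their highest value in any other retina, against 0 to 2 genes in each of the others. They included the surface epithelium keratins Krt15 (9667 against at most 20.8) and Krt5 (5856 against at most 26.9), and also Cbr2.

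Without PLX, all 10 genes were detected in every choroid. To set genes beside each other, values were divided by the kilobases of all annotated exons of a gene. These can exceed the transcript that is made, so the order between genes is approximate. On this scale Stab1 was the highest in control – PLX choroid at 1160 ± 238 normalized counts (SD, n = 5). Cbr2 (645 ± 142), Mrc1 (519 ± 81) and F13a1 (450 ± 29.8) followed, and each overlapped its neighbours in this order. The next step down separated F13a1 from Folr2 (275 ± 74.1), Pf4 (249 ± 32.5) and Cd163 (182 ± 63.6), which overlapped each other, and another separated these from Lyve1 (72.2 ± 24.9), Cd209f (53.2 ± 27.3) and Timd4 (13.1 ± 6.06). In bulk tissue, fewer cells of a type and less RNA per cell cannot be told apart, which holds for every difference below.

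**Figure D1:**
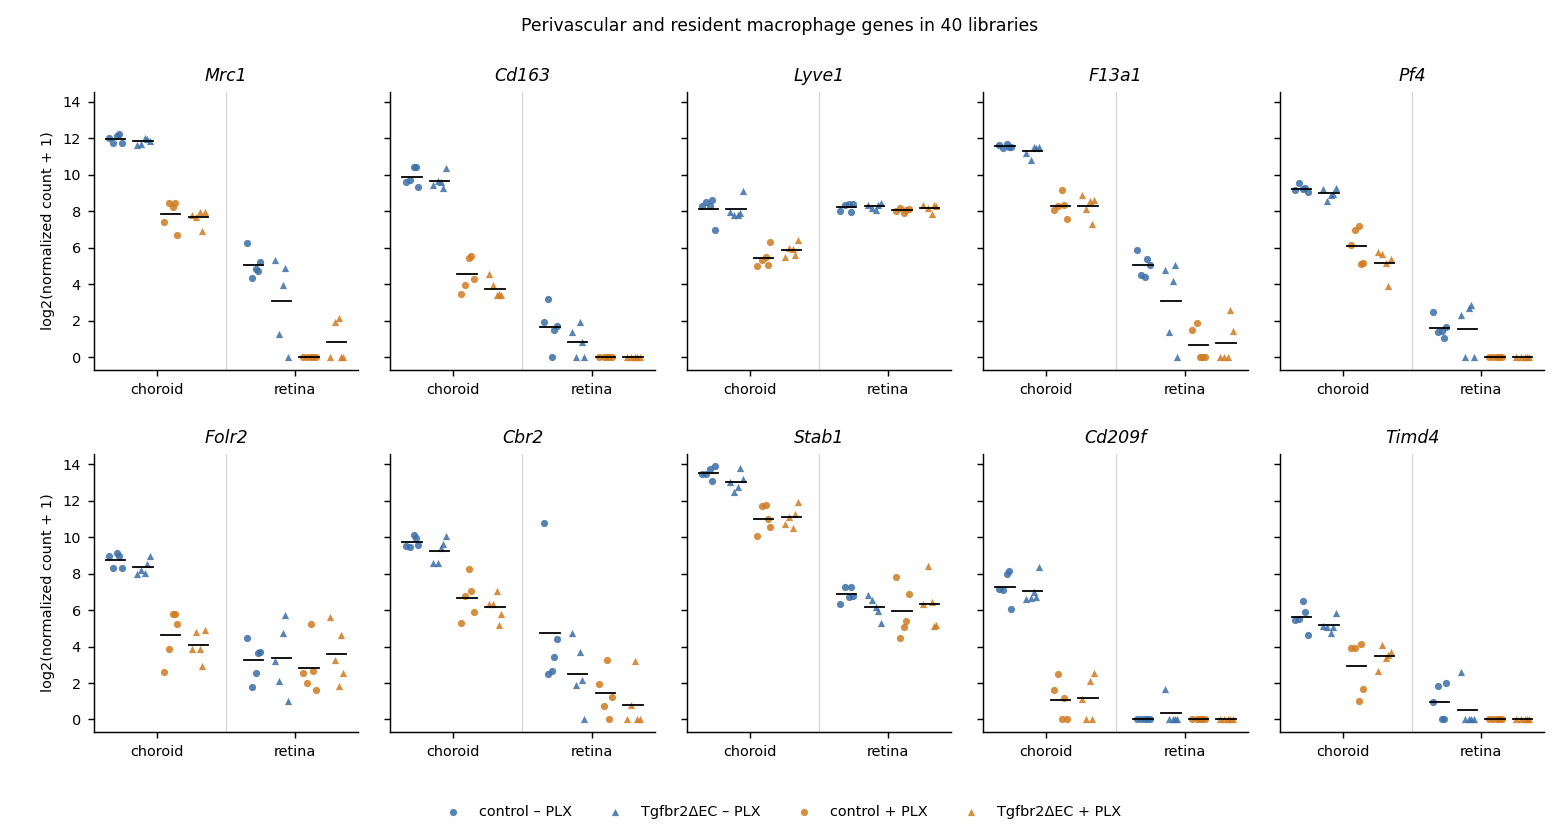
Each point is 1 library, plotted as log2(normalized count + 1) for the 10 genes in choroid (left in each panel) and retina (right), with 5 mice per group and a black line at the group mean. In choroid the PLX groups (orange) lie below the groups without PLX (blue) for every gene, while in retina Lyve1 stays near 300 normalized counts in all 4 groups and Cd163, Pf4, Cd209f and Timd4 are near 0.

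The genes lie on separate chromosomes, except that Lyve1 and Folr2 share chromosome 7 and Cbr2 and Timd4 share chromosome 11. The genes of each pair lie far from each other. In the GRCm39 annotation Mrc1 (chr2:14234151-14336926, plus strand) contains the microRNA gene Mir511 on its own strand, so that their reads cannot be separated by strand. Cd163 (chr6:124281606-124307560, plus strand), F13a1, Folr2 and Stab1 overlap genes on the opposite strand, among them the protein-coding Nt5dc2 at Stab1 (chr14:30860970-30890598, minus strand). RefSeq gave a promoter window, from 250 bases before to 50 bases after a transcript start on GRCm38.p6, for 9 of the 10 genes and none for Lyve1. Windows are shown for the genes with the deepest fall on PLX (Cd209f and Cd163), for Stab1, which fell least in control choroid, and for Pf4 and F13a1, whose windows hold a site for PU.1, a transcription factor of the myeloid lineage. Capitals mark exact matches on either strand to PU.1 (GAGGAAGT), the MAF core (TGCTGA) or AP-1 (TGAGTCA), and an E-box (CACGTG) was also searched. The windows are at chr8:4105715-4106014 (minus strand), chr6:124304401-124304700 (plus), chr14:31168592-31168891 (minus), chr5:90772185-90772484 (plus) and, for the second of 2 F13a1 starts, chr13:37049164-37049463 (minus).
Cd209f: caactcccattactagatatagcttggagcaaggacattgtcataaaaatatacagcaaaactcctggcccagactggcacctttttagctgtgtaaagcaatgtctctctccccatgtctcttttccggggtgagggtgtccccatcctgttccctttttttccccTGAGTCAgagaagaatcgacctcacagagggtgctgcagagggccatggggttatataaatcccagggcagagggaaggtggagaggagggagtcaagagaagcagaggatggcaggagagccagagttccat
Cd163: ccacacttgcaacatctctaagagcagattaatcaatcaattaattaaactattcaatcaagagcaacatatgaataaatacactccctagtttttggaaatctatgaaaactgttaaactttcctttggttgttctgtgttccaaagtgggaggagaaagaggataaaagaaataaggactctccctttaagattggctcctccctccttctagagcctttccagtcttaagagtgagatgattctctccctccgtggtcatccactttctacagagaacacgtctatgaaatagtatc
Stab1: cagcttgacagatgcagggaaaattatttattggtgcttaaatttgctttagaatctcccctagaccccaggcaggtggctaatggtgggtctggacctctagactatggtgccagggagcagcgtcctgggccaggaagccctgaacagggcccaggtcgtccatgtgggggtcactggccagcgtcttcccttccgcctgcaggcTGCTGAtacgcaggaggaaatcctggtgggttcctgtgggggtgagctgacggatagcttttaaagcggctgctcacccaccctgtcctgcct
Pf4: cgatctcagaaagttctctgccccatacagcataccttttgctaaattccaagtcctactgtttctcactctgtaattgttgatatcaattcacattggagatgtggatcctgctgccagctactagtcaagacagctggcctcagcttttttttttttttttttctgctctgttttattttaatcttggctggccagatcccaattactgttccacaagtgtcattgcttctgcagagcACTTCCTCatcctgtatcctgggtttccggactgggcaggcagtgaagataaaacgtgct
F13a1: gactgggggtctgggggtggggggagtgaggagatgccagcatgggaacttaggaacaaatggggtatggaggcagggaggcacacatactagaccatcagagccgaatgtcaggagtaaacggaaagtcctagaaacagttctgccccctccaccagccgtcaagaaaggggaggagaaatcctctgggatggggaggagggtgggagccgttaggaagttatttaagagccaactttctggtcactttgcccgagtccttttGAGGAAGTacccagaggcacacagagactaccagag

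The PU.1 letters were in the windows of 2 of 9 genes (F13a1, Pf4) and in 3.2% of all 32851 windows of 300 bases in the table. The MAF core was found in 4 of 9 (Cbr2, Folr2, Stab1 and Timd4) and in 19.5% of all windows, AP-1 in 2 of 9 (Cd209f, Folr2) and in 5.2%, and the E-box in 0 of 9 and in 7.15%. Some genes had more than 1 window, which raises the chance of a match, and these matches describe letters only.

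The first comparison asked how these genes changed when CSF1R was inhibited. In control choroid, 10 of 10 were lower with PLX at an adjusted p of 0.05 or less, against 3.15% of the 23619 genes tested (limma on log2(normalized count + 1)). Their median log2 difference was -3.2 against 0.016 over all genes. In Tgfbr2ΔEC choroid 9 of 10 were lower, against 3.5% of all genes, with a median log2 difference of -3.46 against -0.007. For each of the 10 genes every PLX value lay below every value without PLX in both genotypes, as it did for 3.27% of all genes in control and 5.16% in Tgfbr2ΔEC choroid.

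Cd209f was the most reduced in control choroid. Its values in control – PLX were 143, 134, 250, 283 and 64.8, and in control + PLX 2.1, 4.65, 0, 1.23 and 0. Every PLX library was thus at or close to the level of about 3 reads (2.69 to 3.59 normalized counts in choroid), and the fitted log2 difference of -6.23 ± 0.59 (SE, adjusted p = 3.94e-07) depends on the pseudocount, being -6.77 with 0.5 and -4.65 with 5. In Tgfbr2ΔEC mice Cd209f was at 94.6, 101, 125, 105 and 324 without PLX and at 1.17, 0, 3.32, 0 and 4.91 with it.

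Cd163 kept 2.64% of its control level. It measured 792, 839, 1403, 1368 and 640 in control – PLX and 10, 14.6, 43.4, 46.2 and 18.7 in control + PLX, a log2 difference of -5.36 ± 0.37 (adjusted p = 1.15e-08). In Tgfbr2ΔEC – PLX it measured 684, 821, 778, 626 and 1345, and in Tgfbr2ΔEC + PLX 22.4, 14.7, 9.84, 9.95 and 9.86. The highest PLX library in either genotype was more than 10-fold below the lowest library without PLX.

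Mrc1 had narrow groups without PLX. Its control – PLX values were 4226, 3424, 4480, 4797 and 3385, and its control + PLX values 168, 353, 303, 350 and 105, so that 6.3% remained (log2 difference -4.11 ± 0.27, adjusted p = 5.67e-09). In Tgfbr2ΔEC choroid the group means were 3685 ± 401.4 and 209.1 ± 52.08, with 5.67% remaining.

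Folr2 fell about as far on average but varied more among PLX mice. Its control – PLX values were 494, 312, 567, 505 and 314 and its control + PLX values 5.19, 13.4, 53.7, 53.3 and 36.5 (log2 difference -4.09 ± 0.49, adjusted p = 9.75e-06). In Tgfbr2ΔEC choroid it went from 335.5 ± 101.1 to 17.88 ± 9.437.

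F13a1 and Pf4, the secreted factors, and Cbr2, the enzyme, formed a middle group. F13a1 went from 3061 ± 202.3 to 336.8 ± 148.6 in control choroid (log2 difference -3.28 ± 0.26) and from 2597 ± 521.6 to 337.9 ± 122.7 in Tgfbr2ΔEC choroid (-3.01 ± 0.26). Pf4 went from 612.5 ± 79.95 to 82.25 ± 52.34 in control choroid (-3.13 ± 0.37) and from 516.8 ± 101.2 to 38.6 ± 15.5 in Tgfbr2ΔEC choroid (-3.81 ± 0.37). Cbr2 went from 858 ± 188.9 to 126.8 ± 103.7 (-3.08 ± 0.43) and from 654.1 ± 292 to 76.22 ± 36.72 (-3.1 ± 0.43).

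Lyve1, Timd4 and Stab1 had the smallest differences. Lyve1 was at 308, 366, 312, 390 and 126 in control – PLX and at 31.8, 39.5, 43.7, 32.6 and 79.5 in control + PLX (log2 difference -2.68 ± 0.32, adjusted p = 9.92e-06). The highest PLX value came from mouse 15, the choroid with the highest photoreceptor genes in that group, and at their share of 9.93% the retinal Lyve1 of that mouse would give 27.7 normalized counts, or 34.9% of the choroid value. In the 4 other control + PLX choroids the same product was 3.37% to 11.7% of Lyve1. It was 2.71% to 13.7% in Tgfbr2ΔEC – PLX and 3.5% to 14.8% in Tgfbr2ΔEC + PLX choroids. The part of neural retina RNA in the Lyve1 values, that of mouse 15 included, was not tested. Stab1 was at 11026, 11302, 13463, 8650 and 15031 in control – PLX and at 1079, 3284, 3511, 2038 and 1488 in control + PLX (-2.5 ± 0.31, adjusted p = 1.28e-05), so that 19.2% remained, and 26.3% remained in Tgfbr2ΔEC choroid. Timd4 went from 52.05 ± 24.01 to 9.606 ± 7.393 in control choroid (-2.67 ± 0.53, adjusted p = 0.00349). In Tgfbr2ΔEC choroid Timd4 was the 1 gene of the 10 that did not pass (36.1 ± 11.69 without and 10.71 ± 3.857 with PLX, log2 difference -1.68, 95% interval -2.79 to -0.57, adjusted p = 0.0849). These Timd4 calls moved with the fit: with only the compared groups in the model the adjusted p was 0.0549 in control and 0.01 in Tgfbr2ΔEC choroid, and in the latter it was 0.0359 without mouse 13 and 0.0367 with a pseudocount of 5.

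**Figure D2:**
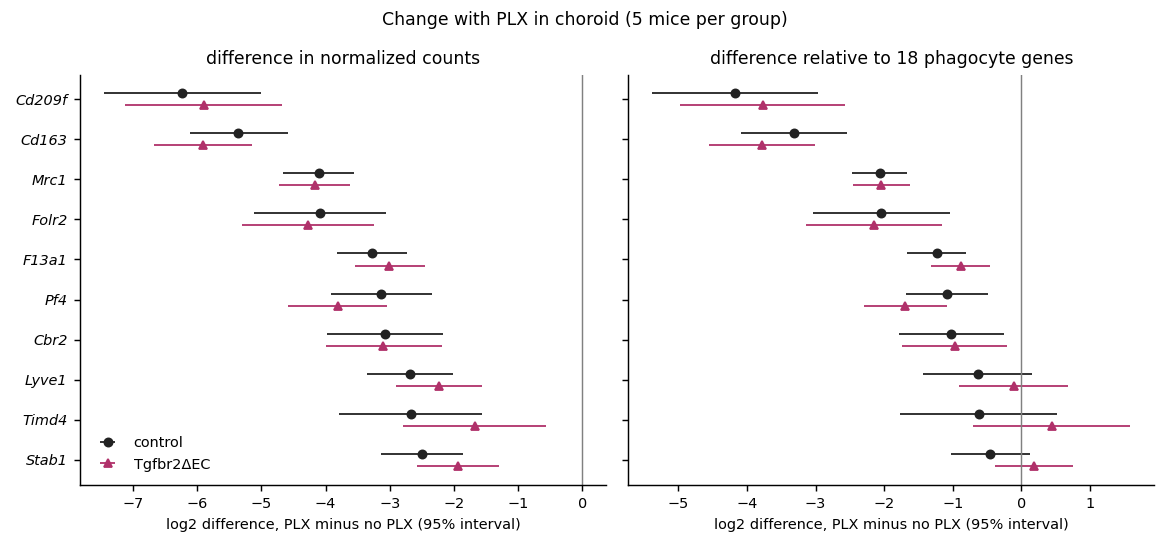
The left panel shows the log2 difference between PLX and no PLX with its 95% interval for each gene in control (black circles) and Tgfbr2ΔEC choroid (magenta triangles), 5 mice per group. The right panel shows the same after subtracting the mean log2 level of 18 phagocyte genes in each library, where Lyve1, Timd4 and Stab1 have intervals that include 0 and the other 7 genes stay below it.

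Many phagocyte genes were lower with PLX, so each gene was also set against 18 genes shared by mononuclear phagocytes (MP), among them Csf1r, Cd68, Itgam and the C1q genes, a comparison that was added after the data had been seen. Of these 18 genes, 17 were lower with PLX in each genotype, with a median log2 difference of -1.94 in control and -2.18 in Tgfbr2ΔEC choroid, and only Mertk was not (0.12 and -0.05). The lowest of the 18 was at -3.61 in control and -3.47 in Tgfbr2ΔEC choroid. In control choroid F13a1 (-3.28), Pf4 (-3.13) and Cbr2 (-3.08) fell less than that lowest gene. In Tgfbr2ΔEC choroid F13a1 (-3.01) and Cbr2 (-3.1) did too, while Pf4 (-3.81) fell further. Relative to the mean log2 level of the 18 genes, 7 of the 10 members were lower with PLX in both genotypes, against 0.267% of all genes in control and 0.165% in Tgfbr2ΔEC choroid. None was higher on this scale, on which 91.7% and 89.5% of all genes were. Most genes do not fall with phagocytes, which also keeps the share called lower small. The 7 were Cd209f (log2 difference -4.18 ± 0.58 in control choroid), Cd163 (-3.31 ± 0.37), Mrc1 (-2.06 ± 0.2), Folr2 (-2.04 ± 0.48), F13a1 (-1.23 ± 0.21), Pf4 (-1.08 ± 0.29) and Cbr2 (-1.03 ± 0.37).

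Stab1 and Timd4 did not pass on this scale in either genotype. Stab1 differed from the phagocyte genes by -0.45 (95% interval -1.02 to 0.12) in control and by 0.18 (-0.38 to 0.75) in Tgfbr2ΔEC choroid, and Timd4 by -0.62 (-1.77 to 0.52) and 0.44 (-0.71 to 1.59). Lyve1 differed by -0.63 (-1.43 to 0.16) and -0.11 (-0.91 to 0.68), but in control choroid it was called lower without mouse 5 (-0.93, adjusted p = 0.0233) and without mouse 15 (-0.99, adjusted p = 0.0108). The Cbr2 call was lost without mouse 11 in control choroid (adjusted p = 0.0539), and in Tgfbr2ΔEC choroid without mouse 10 (0.0701), without mouse 19 (0.0502) and when the neural retina score entered the model (-0.93, adjusted p = 0.0563).

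Other genes of resident macrophages were lower as well. Of 24 such genes, 21 were lower with PLX in control choroid and 20 in Tgfbr2ΔEC choroid, with a median log2 difference of -2.03 in both. The 6 most abundant of them had smaller differences in control choroid than any of the 10 members. Gas6, a ligand of the receptor MERTK, was at 13310 ± 2727 without and 16200 ± 2330 with PLX (adjusted p = 0.288). Igf1, a growth factor, was at 6510 ± 1500 and 4483 ± 1180 (log2 difference -0.55, adjusted p = 0.118), while in Tgfbr2ΔEC choroid it was called lower (-0.84, adjusted p = 0.00826). The endocytic adaptor Dab2 fell by 0.82, the ubiquitin ligase Wwp1 by 0.48, the fatty acid receptor Cd36 by 1.49 and the heme-degrading enzyme Hmox1 by 1.2 on the log2 scale. The C-type lectin neighbours of Cd209f were also lower in control choroid, with log2 differences of -1.75 (Cd209a), -3.68 (Cd209b), -2.92 (Cd209d) and -5.73 (Cd209g), and every control + PLX choroid had Cd209g at 0. In Tgfbr2ΔEC choroid Cd209b, Cd209d and Cd209g were called lower and Cd209a was not. Counts of genes of this family may be split between related copies, which was not examined, and are to be read with caution. These Cd209 genes were named after their values had been seen, as near relatives of Cd209f.

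Markers of other possible sources were read beside these values. Among 8 monocyte genes 1 was lower with PLX in each genotype (Ccr2, -2.17 and -1.49), among 7 dendritic cell genes 3 and 2 were, and among 8 homeostatic microglia genes 5 and 5 were. Of 6 platelet genes, 5 could be tested and 0 changed at an adjusted p of 0.05 or less. Their median log2 difference was -1.2 in control and -0.51 in Tgfbr2ΔEC choroid, and the part of platelets in the Pf4 values was not tested. In Tgfbr2ΔEC choroids the platelet sum spanned 110.3 to 161.4 without and 66.08 to 150.5 with PLX. The summed platelet markers spanned 142.2 to 545.3 in control – PLX and 84.01 to 128.2 in control + PLX choroids, with Ppbp at 371.9 in mouse 4 and Gp6 and Gp9 listed at 0 in the median control – PLX library. Of 7 lymphatic and sinusoidal endothelial genes, 0 were lower in control choroid and Flt4 was higher (0.43), while in Tgfbr2ΔEC choroid Prox1 was lower (-1.83). Their sum spanned 8126 to 11890 in control – PLX and 9973 to 12330 in control + PLX choroids, and Ccl21a was listed at 0 in every control choroid. In Tgfbr2ΔEC choroids the sum spanned 8114 to 9829 without and 9310 to 11040 with PLX, and Ccl21a was above 0 in 3 of 5 without (at most 123.4) and in 2 of 5 with PLX (at most 82.43). The 7 genes had a median log2 difference between genotypes of 0.69 without PLX, up to 3.18 for Ccl21a, and 0 passed. Their part in the Lyve1 and Stab1 values was not tested. Prox1 and Reln, 2 genes of this list, were at 2737 to 5348 and 3345 to 4690 in the control retinas, and in Tgfbr2ΔEC choroid the 10 neural retina genes had a median log2 difference of -2.19 with PLX. The part of neural retina RNA in the Prox1 difference was not tested.

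**Figure D3:**
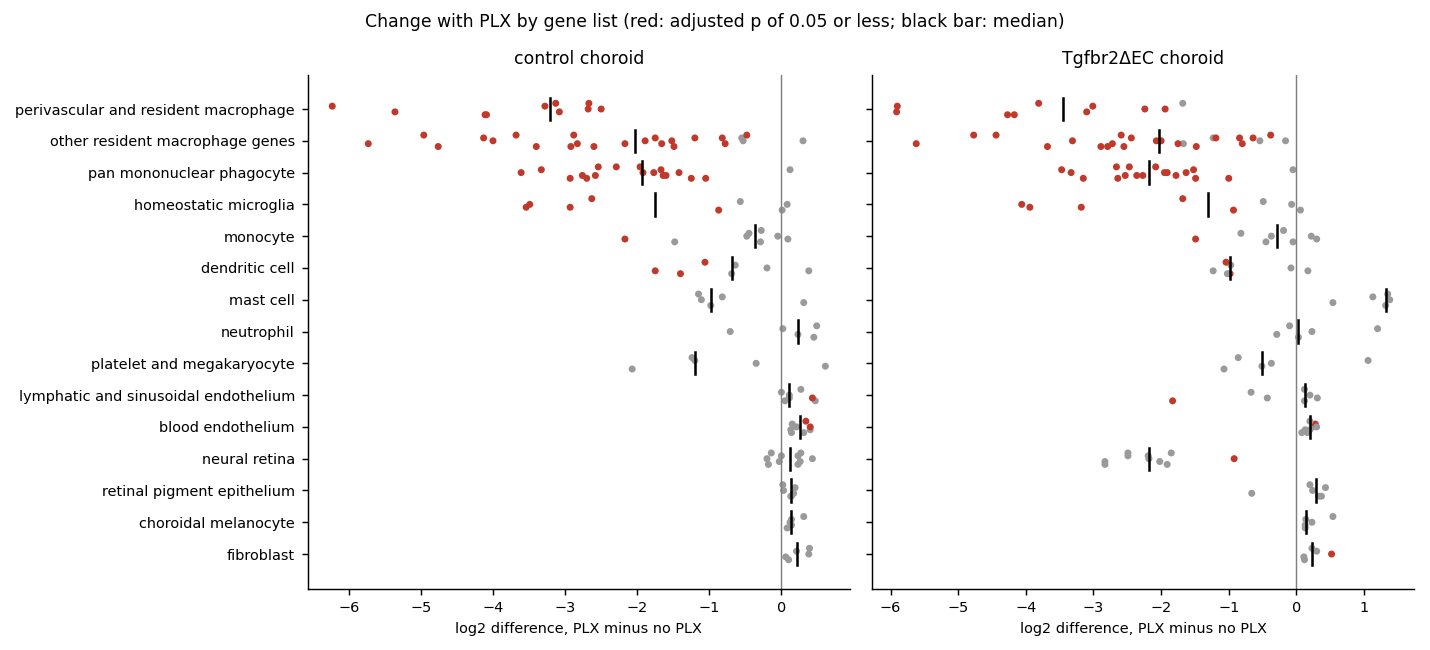
Each point is 1 gene, placed by its log2 difference between PLX and no PLX in control choroid (left) and Tgfbr2ΔEC choroid (right), in rows by gene list, red where the adjusted p was 0.05 or less, with a black bar at the list median. The top row holds the 10 genes described here, with medians of -3.2 and -3.46, and the medians of the blood endothelium, pigment epithelium, melanocyte and fibroblast rows lie between 0.14 and 0.29. In the right panel Prox1 lies at -1.83 in the lymphatic row and the neural retina row has a median of -2.19.

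The next comparison asked whether loss of Tgfbr2 in endothelial cells changed these genes. In choroid without PLX, 0 of 10 differed between genotypes, where 1 gene of 23619 did (0.00423% of all genes), and 0 of 10 had an unadjusted p under 0.05, against 9.25% of all genes. The number of all genes at an adjusted p of 0.05 or less was 303 with only the compared groups in the model, 411 without mouse 15 and 0 at a minimum mean of 10, and 0 of the 10 passed in any of these. In choroid with PLX, 0 of 10 differed, again against 0.00423% of all genes, and 2 had an unadjusted p under 0.05, against 3.76%. In retina, 0 of 8 tested differed without PLX (0% of all genes) and 0 of 8 with PLX (0%), with 2 and 0 at an unadjusted p under 0.05, against 3.26% and 2.71% of all genes. These counts do not show that the genotypes were alike, and the intervals give what could have been missed.

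For Mrc1 in choroid without PLX the log2 difference, Tgfbr2ΔEC minus control, was -0.13 with a 95% interval of -0.69 to 0.42, and for Lyve1 it was -0.01 (-0.69 to 0.66). Stab1 had the smallest unadjusted p of the 10 without PLX, at 8807 ± 3153 against 11890 ± 2446 (-0.48, -1.12 to 0.16, adjusted p = 0.728 by limma). The groups overlapped. Cbr2 differed by as much (-0.48, -1.39 to 0.42). All 10 differences in choroid without PLX were below 0, from -0.01 to -0.48, and every one of those Tgfbr2ΔEC choroids had a higher sum of the photoreceptor genes than any control – PLX choroid. With a neural retina score as a covariate the differences of Mrc1, F13a1, Pf4, Cd209f and Timd4 were above 0 (0.17, 0.03, 0.22, 0.29 and 0.12). Those of Cd163, Lyve1, Folr2, Cbr2 and Stab1 stayed below 0, and 0 of 10 genes passed. Since the photoreceptor sums did not overlap between genotypes without PLX, genotype and neural retina RNA cannot be told apart there. With PLX, Pf4 was at 38.6 ± 15.5 against 82.25 ± 52.34 (-0.94, -1.72 to -0.17, unadjusted p = 0.0199 and adjusted p = 1 by limma) and Cd163 at 13.35 ± 5.482 against 26.59 ± 16.94 (-0.78, -1.54 to -0.02, unadjusted p = 0.0453 and adjusted p = 1). The groups of both genes overlapped.

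The change with PLX was not shown to depend on genotype. The interaction passed for 0 of 10 genes in choroid (0% of all genes) and 0 of 8 in retina (0%). In choroid the largest estimate was that of Timd4 (0.99, 95% interval -0.58 to 2.56), and Mrc1 had -0.06 (-0.84 to 0.73). The estimates in retina were larger and their intervals wider: Mrc1 had 2.8 (0.47 to 5.14, adjusted p = 1 by limma), the 1 gene of the 8 at an unadjusted p under 0.05 (2.44% of all genes), and F13a1 had 2.08 (-0.31 to 4.47). Both rest on a few normalized counts or 0 with PLX.

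In retina these genes were scarce, apart from Lyve1 and Stab1. Per kilobase of exon, Lyve1 led in control – PLX retina, leaving out the Cbr2 of mouse 1, with 72.2 ± 10.3, the same mean as in choroid, followed by Stab1 at 11.5 ± 3.1. Mrc1 was at 75, 19.6, 27.8, 25.2 and 36.9 normalized counts in control – PLX and was listed at 0 in all 5 control + PLX retinas. F13a1 was at 58.3, 21.9, 20.4, 40.8 and 31.9 without and at 1.87, 2.7, 0, 0 and 0 with PLX. These were the 2 of 8 tested genes lower with PLX in control retina, against 0.727% of all genes, with log2 differences of -5.08 ± 0.79 and -4.37 ± 0.81 (adjusted p = 0.000728 and 0.00538) whose size depends on the pseudocount, since the PLX values were at or below the level of 3 reads.

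In Tgfbr2ΔEC retina 0 of 8 were lower, against 0.512% of all genes, and 3 had an unadjusted p under 0.05, against 3.95%. Mrc1 there was at 39.7, 1.41, 14.6, 29.1 and 0 without PLX and at 0, 2.8, 3.48, 0 and 0 with it (log2 difference -2.28, 95% interval -3.93 to -0.63, adjusted p = 0.724 by limma). F13a1 was at 26.5, 1.65, 17.5, 32.1 and 0 without PLX. Mice 7 and 10 were the low ones for both genes, and without mouse 10 the Mrc1 difference passed (-3.05, adjusted p = 0.0472). Without PLX, Mrc1 and F13a1 were lower in Tgfbr2ΔEC than in control retina by 1.99 and 1.96 on the log2 scale, at an adjusted p of 0.985 for each.

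Lyve1 in retina showed no detected difference, with narrow intervals. It was at 256, 328, 335, 252 and 333 in control – PLX and at 257, 293, 243, 271 and 279 in control + PLX (log2 difference -0.15, 95% interval -0.42 to 0.11), and at 312.3 ± 31.06 and 297.2 ± 41.03 in the Tgfbr2ΔEC groups (-0.08, -0.34 to 0.19). Folr2 was between 1.05 and 51.3 in retina and differed by -0.43 (-2.24 to 1.38) and 0.21 (-1.6 to 2.02). Stab1 was between 21.1 and 343 and differed by -0.93 (-2.15 to 0.28) and 0.17 (-1.05 to 1.38). Cd163 and Pf4 were at most 8.1 and 6.43 without PLX and listed at 0 in all 10 retinas with PLX. Cd209f was above 0 in 1 of 20 retinas and Timd4 in 4 of 20, and neither was tested there. Cbr2 was at 1713 in the retina of mouse 1 and at most 25.6 in the others, and its log2 difference with PLX in control retina was -3.31 with mouse 1 and -1.81 without it (adjusted p = 0.573 and 1).

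Lists of other macrophage genes differed in these retinas. Of the 8 microglia genes 7 were lower in each genotype, and of the 18 phagocyte genes 14 were lower in control and 16 in Tgfbr2ΔEC retina, with median log2 differences of -5.62 and -4.76 for the phagocyte genes. Of the 24 other resident macrophage genes 16 could be tested in retina, of which 2 were lower in control (Clec4n and Blnk, median of the 16 -0.43) and 1 in Tgfbr2ΔEC retina (Blnk, median -0.31).

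Choroid and retina of the same mouse were compared as pairs. Without PLX, 9 of 10 genes were higher in choroid in control mice, against 33.8% of the 24317 genes tested, and 9 of 10 in Tgfbr2ΔEC mice, against 33.2%. Cd209f and Timd4 are in both counts. They were too low in retina to be tested there and passed the filter of this fit through choroid. These 2 are thus given as values, and the counts of 9 are not read against all genes. In control mice the log2 differences ran from 4.65 ± 0.56 for Timd4 to 8.24 ± 0.48 for Cd163, with 6.89 ± 0.57 for Mrc1 and 6.66 ± 0.58 for Stab1. Retinal Timd4 and Cd163 were at a few normalized counts or 0, so the size of their difference depended on the pseudocount: between 5 and 0.5 it ranged from 3.1 to 5.21 for Timd4 and from 6.99 to 8.6 for Cd163. Cbr2 differed by 4.98, or by 6.53 without mouse 1. The exception was Lyve1, which differed by -0.09 (95% interval -0.61 to 0.43) in control and -0.16 (-0.68 to 0.35) in Tgfbr2ΔEC mice.

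With PLX, 8 of 10 were higher in choroid in each genotype, against 33.4% of all genes in control and 33.8% in Tgfbr2ΔEC mice. Timd4 is in both counts and Cd209f in that of Tgfbr2ΔEC mice. Both genes were listed at 0 in every retina with PLX and passed the filter of this fit through choroid. The counts of 8 are therefore not read against all genes. Lyve1 was now lower in choroid by 2.62 ± 0.25 in control and 2.32 ± 0.25 in Tgfbr2ΔEC mice on the log2 scale (adjusted p = 6.11e-09 and 3.77e-08), and 32.3% of all genes were lower in choroid in each. Its choroid value was below the retina value in 10 of 10 PLX mice. Folr2 was higher in choroid in control + PLX mice (1.85, adjusted p = 0.0272), a call lost without mouse 12, 14 or 15 (adjusted p = 0.0541, 0.103 and 0.123), and not in Tgfbr2ΔEC + PLX mice (0.5, 95% interval -0.98 to 1.97). Cd209f was at most 4.91 in choroid and listed at 0 in retina of these mice. It was 1 of the 8 called in Tgfbr2ΔEC + PLX mice (1.16, adjusted p = 0.0455 by limma). The call was lost in 9 of 20 fits that left out 1 mouse, with a pseudocount of 5 (0.23) and with all genes kept (0.0732). That leaves 7, Timd4 among them.

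**Figure D4:**
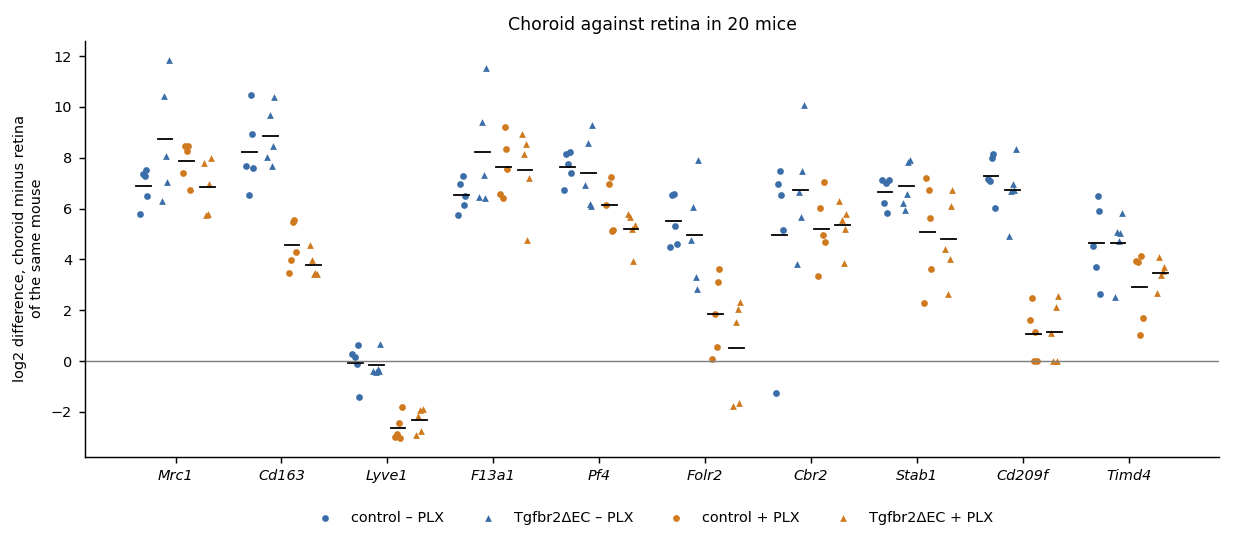
Each point is 1 mouse, plotted as the log2(normalized count + 1) of its choroid minus that of its retina, for each gene and group of 5 mice, with a line at the group mean. Lyve1 lies around 0 without PLX (blue) and below 0 in all 10 mice with PLX (orange), while Mrc1 and F13a1 stay above 0 in every group.

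The test of a different PLX change in the tissues passed for 5 of 10 genes and for 1.1% of all genes, each of the 5 with a more negative difference in choroid. For 3 of them, Cd163 (-4.38), Pf4 (-1.88) and Cd209f (-5.9), the retina values were at or near 0 already without PLX and could fall little further, so these 3 are given as values and the count of 5 is not read against all genes. Lyve1 (-2.35 ± 0.25, adjusted p = 9.19e-06) and Folr2 (-4.07 ± 0.71, adjusted p = 0.00302) were above 0 in every retina of both diets, Lyve1 at 230.5 or more and Folr2 at 1.05 or more, where some libraries were at the level of 3 reads or less. Pf4 was close to the threshold (adjusted p = 0.0428) and was lost in 15 of the 20 fits that left out 1 mouse. For Mrc1 and F13a1 no difference in the change between tissues was detected (-0.46, 95% interval -1.65 to 0.73, and 0.19, -1.12 to 1.49). Their retina values with PLX were a few normalized counts or 0, which limits this comparison. With a pseudocount of 5 the Mrc1 difference passed (-1.96, adjusted p = 0.00642 by limma) and the F13a1 estimate was -1.11. The phagocyte genes went the other way: 13 of 18 fell less in choroid than in retina and 0 fell more.

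Mice of 1 group also differed among themselves. Over the 10 choroids without PLX, deviations from the group mean had a median correlation of 0.49 over the 45 pairs of the 10 genes, from -0.29 (Cd163 with Stab1) to 0.95 (Cd163 with Cd209f), and over the 10 choroids with PLX the median was 0.27. These values share libraries and describe 10 points each. Mouse 10 (Tgfbr2ΔEC – PLX) was the highest of its group for Cd163 (1345), Lyve1 (561), Folr2 (498), Cbr2 (1070), Cd209f (324), Pf4 (626) and Timd4 (56.1). Mouse 5 (control – PLX) was the lowest of its group for Mrc1, Cd163, Lyve1, Pf4, Cd209f and Timd4, while it had the highest Stab1 (15031). Its Lyve1, 126, was the lowest of the choroids without PLX.

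**Figure D5:**
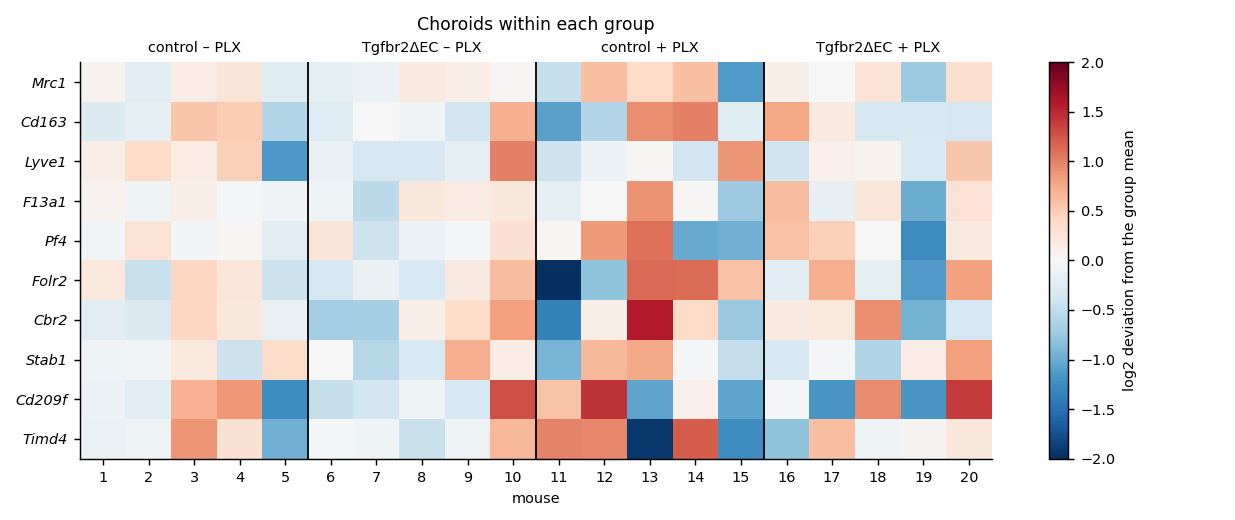
Each cell shows how far 1 choroid (column, by mouse) lies from its group mean in log2(normalized count + 1) for 1 gene (row), from -2 (blue) to 2 (red), with lines between the 4 groups of 5 mice. Mouse 10 is above its group mean for all 10 genes, mouse 13 for 8 of 10, and Folr2 of mouse 11 and Timd4 of mouse 13 are the lowest cells.

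The genes whose levels over the 20 choroids were most like the mean standardized level of these 10, among 17587 candidates, were C1qc (Pearson correlation 0.987), C1qa (0.986), Cd33 (0.98), Gpr34 (0.98) and C1qb (0.98). C1qa, C1qb and C1qc encode the chains of complement C1q. The correlations mostly follow the difference between diets, and for deviations from the group means they were 0.733, 0.654, 0.414, 0.506 and 0.62. C1qc went from 4867 in control – PLX to 683.2 in control + PLX, with a log2 difference of -2.93.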

How the data were processed

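RNA was sequenced from retina and central choroid with laser lesions of 20 mice. The authors quantified transcripts with salmon 1.10.1 against GRCm39 (release vM29) after FastQC 0.11.5, and the deposited signal values are gene counts normalized with DESeq2 1.36.0. The paper states that retina and choroid were analysed apart after quantification. In the deposited values the median ratio to the geometric mean of all 40 libraries was 1.0082 in every library. Both tissues were therefore taken to share 1 scaling. Whole reads could not be recovered from the values (46.0% to 73.3% of low values per library lay within 0.1 of a whole number), so no count test was run. Groups came from the sample labels. Ensembl identifiers were matched to GENCODE vM39 symbols on the same build (53700 of 54307 matched). The values plus a pseudocount of 1 were taken as log2, genes with a mean of at least 1 in the libraries of a fit were kept, and limma 3.58.1 (R 4.3.3, empirical Bayes with a trend) was fitted to the 4 groups of each tissue, or to 20 differences between choroid and retina of 1 mouse, with Benjamini-Hochberg adjusted p of 0.05 as the threshold and two-sided tests. The study also used sex and a neuronal score as covariates, which were alternatives here. Library names gave the same mouse number to both tissues of a mouse, which pairs them, and the deviations of the 2 tissues from their group means correlated by -0.112 to 0.178 (median 0.069). Other alternatives changed the pseudocount, the filter, the scaling to a common library total, the variance estimate and the groups in the fit, or left out each mouse. The genes, the other lists and the tests were chosen with earlier results of these data known. All 10 genes were named, with the 6 most abundant of 24 other resident macrophage genes and the 5 genes of most similar pattern. The fits were also run on simulated data, and the outcome is not reported here. Python 3.11.15 with pandas 2.3.3, numpy 2.4.6 and matplotlib 3.10.9 were used for summaries and plots.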

Additional observations from a re-analysis of the deposited data

Results flagged for a closer look

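Of 70 gene and group combinations of 5 libraries with any spread, 11 held a library whose gap to its nearest neighbour exceeded 0.71 of the range of the group (Dixon's 95% limit). For normally distributed values about 1 in 20, or 3.5, would pass that limit. It was applied here to counts without a log scale, some of them 0, so 3.5 is no baseline for the 11. Genes of 1 library are not independent, and 4 of the 11 were the choroid of mouse 10 (Tgfbr2ΔEC – PLX): Cd163 at 1344.8 (next 821.2), Lyve1 at 560.8 (next 250.6), Cd209f at 323.8 (next 124.8) and Timd4 at 56.1 (next 34). The choroid of mouse 15 (control + PLX) had Lyve1 at 79.5, next 43.7. In retina, mouse 1 (control – PLX) had Cbr2 at 1713.4 (next 20.2), mouse 13 (control + PLX) had Folr2 at 36 (next 5.2), mouse 18 (Tgfbr2ΔEC + PLX) had Cbr2 at 8.3 (next 0.7) and mouse 17 of the same group had Stab1 at 343.2 (next 87.4). The retina of mouse 6 (Tgfbr2ΔEC – PLX) had Cd209f at 2.2 and Timd4 at 5.1, where the 4 other retinas of its group were at 0, and these are values of 1 to a few reads.

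The difference in the PLX change between choroid and retina passed the test for Cd163 (-4.38), Lyve1 (-2.35), Pf4 (-1.88), Folr2 (-4.07) and Cd209f (-5.9, all log2, choroid minus retina). Cd163, Pf4 and Cd209f were at or near 0 in retina already without PLX, Cd209f being above 0 in 1 of 20 retinas and not tested there. The Pf4 call was lost in 15 of the 20 fits that left out 1 mouse. The cause of these differences was not tested.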

How the results depend on the processing

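The number of members past the threshold changed by more than 1.5 times under 1 alternative: with mice left out in turn, the count of genes lower with PLX in Tgfbr2ΔEC retina ranged from 0 to 1, the 1 being Mrc1 without mouse 10. Of 4388 values of single genes under the alternatives, 0 reversed a called direction, 37 lost and 14 gained a call, and 92 changed sign without a call. In choroid, the count of genes lower with PLX stayed between 9 and 10 in both genotypes under every alternative run. The 18-gene comparison, chosen after seeing the data, gave 6 to 8 genes in control and 6 to 7 in Tgfbr2ΔEC choroid over its alternatives: in control choroid Lyve1 was gained without mouse 5 or 15 and Cbr2 lost without mouse 11, and in Tgfbr2ΔEC choroid Cbr2 was lost without mouse 10 or 19 and when the neural retina score entered the model. Cd209f in Tgfbr2ΔEC + PLX mice, higher in choroid at an adjusted p of 0.0455 by limma, lost that call with a pseudocount of 5 (0.23), with all genes kept (0.0732) and without mouse 1, 2, 7, 8, 9, 14, 16, 18 or 20. Cd209f in control + PLX mice gained it with a pseudocount of 0.5 (0.0419) and without mouse 13 (0.0445) or 15 (0.0439). Cd163 in control retina gained a call without mouse 3 (0.0362). The Pf4 difference between tissues was lost with a pseudocount of 0.5 (0.409), with all genes kept (0.0866) and on a common library total (0.0531), and that of Timd4 passed with a pseudocount of 5 (0.0173).

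Without the replicate block, that is, with the 2 tissues of a mouse treated as unpaired, the counts higher in choroid were 9 and 9 without PLX and 9 and 8 with PLX, and 6 genes differed in their PLX change, Stab1 among them (adjusted p = 0.0461). On a common library total the median log2 difference of all genes between choroid and retina was -0.148 to -0.099, a shift of -0.14 to -0.095.

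Over all genes, the number that differed with PLX in control choroid was 885, and 572 with only the compared groups. It was 958 in Tgfbr2ΔEC choroid, and 536 and 452 with the neural retina score alone or with sex as covariates. In control retina it was 171, and 104 at a minimum mean of 10. Genotype without PLX gave 1 gene in choroid, 303 with only the compared groups, 411 without mouse 15, 2 without mouse 4 or 8 and 0 at a minimum mean of 10. With PLX it gave 1 gene, and 0 in 15 of the 20 fits that left out 1 mouse and under 6 of the 10 other alternatives. The PLX change differed between tissues for 268 genes, and 513 without mouse 15. The causes were not tested. Values in retina of a few reads limit what a fall there can show.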
